A study of Mus musculus with 2 samples.

Results

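Of the 55416 genes counted in 2 mouse rhabdoid tumors, 39 are genes of skeletal muscle. They were taken by name from a list of muscle genes, by a rule that uses no measured value. The list itself was chosen with earlier results of these data known, so it is not independent of them. The 39 genes fall by textbook role into 7 groups: 4 myogenic factors, 2 embryonic and neonatal fiber genes, 14 fast fiber genes, 4 slow fiber genes, 8 shared sarcomere and Z-disc genes, 4 genes of muscle metabolism and 3 genes of the membrane, of calcium release or of protein turnover. All 39 had a row in the count table.

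Rhabdoid tumors are malignant tumors that follow loss of Smarcb1, part of SWI/SNF, a complex that remodels chromatin. Bulk RNA-seq was run on 1 tumor labelled intracranial, at the trigeminal nerve, and 1 tumor labelled extracranial, of the face and upper jaw. Both came from Dppa3-cre mice with the Smarcb1 fl/+ genotype and both carry the label MYC, a molecular subgroup of these tumors. The Cre recombinase is knocked in at Dppa3, which primordial germ cells express, and the mice are heterozygous, with the other Smarcb1 allele not floxed. Whole tumor pieces were sequenced, host cells included, and no normal muscle and no tumor-free tissue was analysed here. The age and sex of the mice are not given in the sources used here.

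Each library is named here by its label. The intracranial library held 34545846 counts and the extracranial library held 26915696. Smarcb1 itself was listed with 365 and 530 counts, or 10.5 and 19.8 counts per 1000000 counts of the scaled library (CPM). With 1 library per location there is no replicate error, so every interval given here is a 95% interval of counting error alone, and every comparison is between these libraries rather than between locations. The sites at which the tumors grew, the dissection and the tumors themselves cannot be told apart.

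Skeletal muscle fibers are long cells fused from myoblasts, whose differentiation is driven by the transcription factors Myf5, Myod1, Myog and Myf6. The contractile unit of the fiber, the sarcomere, is built of myosin and actin filaments, and contraction starts when calcium binds the troponin complex on actin. Fast and slow fibers use separate genes for the same parts, and embryonic and neonatal myosins come before the adult ones. Of the muscles of the head, those that close the jaw are supplied by the trigeminal nerve.

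The fast and developmental myosin heavy chain genes lie side by side on mouse chromosome 11. Among the 39 genes, the largest ratios with counts in both libraries were those of Myh1 and Myh2. Promoters of these myosin genes are therefore shown first. Each line is the 250 bases before the gene start, 5′ to 3′, from RefSeq on build GRCm38.p6, all on the plus strand. The windows are chr11:67170777-67171026 for Myh2, chr11:67199852-67200101 for Myh1, chr11:67237562-67237811 for Myh4 and chr11:67276874-67277123 for Myh8. Capitals mark the longest run of bases that all 4 windows share, 14 bases long, a stretch found by comparing these windows.
Myh2: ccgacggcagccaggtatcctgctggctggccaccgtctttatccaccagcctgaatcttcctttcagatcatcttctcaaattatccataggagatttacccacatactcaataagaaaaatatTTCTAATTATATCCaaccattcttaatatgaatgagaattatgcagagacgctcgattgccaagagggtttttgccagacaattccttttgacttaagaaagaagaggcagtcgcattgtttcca
Myh1: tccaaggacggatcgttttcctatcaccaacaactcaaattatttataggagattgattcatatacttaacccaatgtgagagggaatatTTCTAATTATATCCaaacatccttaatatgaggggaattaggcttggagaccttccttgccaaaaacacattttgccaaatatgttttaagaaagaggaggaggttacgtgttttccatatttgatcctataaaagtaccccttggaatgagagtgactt
Myh4: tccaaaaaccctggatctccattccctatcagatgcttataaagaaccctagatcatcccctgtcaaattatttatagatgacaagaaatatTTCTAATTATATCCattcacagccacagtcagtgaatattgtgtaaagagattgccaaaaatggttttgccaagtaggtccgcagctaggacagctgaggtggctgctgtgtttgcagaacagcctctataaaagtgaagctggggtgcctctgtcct
Myh8: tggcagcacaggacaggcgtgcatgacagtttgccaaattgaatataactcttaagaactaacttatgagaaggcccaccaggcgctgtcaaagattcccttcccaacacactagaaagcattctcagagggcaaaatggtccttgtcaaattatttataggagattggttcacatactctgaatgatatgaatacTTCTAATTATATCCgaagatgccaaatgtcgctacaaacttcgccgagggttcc
The shared run began 125 bases before the start of Myh2, 160 before Myh1, 158 before Myh4 and 54 before Myh8. Of 32851 promoter windows of this length it was found, on either strand, in these 4 (0.0122%). The window of the embryonic Myh3 is not printed and does not hold it.

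Expression of skeletal muscle genes was higher in the intracranial library for the fast myosins, for most parts of the sarcomere and for myoglobin, and did not differ beyond counting error for the slow troponins. Of the 39 genes, 32 had more than 3 counts in the intracranial library and 22 in the extracranial library. A call required that the ratio's interval lie entirely beyond 4-fold, which could be asked of the 31 genes with 10 or more counts over both libraries. Of these, 12 were called higher in the intracranial library, where 5.41% of all 21977 genes tested were called in that direction, and 0 were called higher in the extracranial library, where the share over all genes was 1.78%. With an interval beyond 2-fold, 17 genes were higher in the intracranial library against 9.77% of all genes, and 0 were higher in the other against 5.86% of all genes. Of 10 defining markers of muscle fibers, Tnnc2 and the calcium channel Cacna1s among them, 8 were above 3 counts in the intracranial library and 7 in the extracranial library, against 0 of 5 markers of myoblasts and satellite cells in either. The median log2 ratio, extracranial over intracranial, was -1.49 over the 32 genes with a ratio and -0.04 over the 24490 genes of the table with one.

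**Figure D1:**
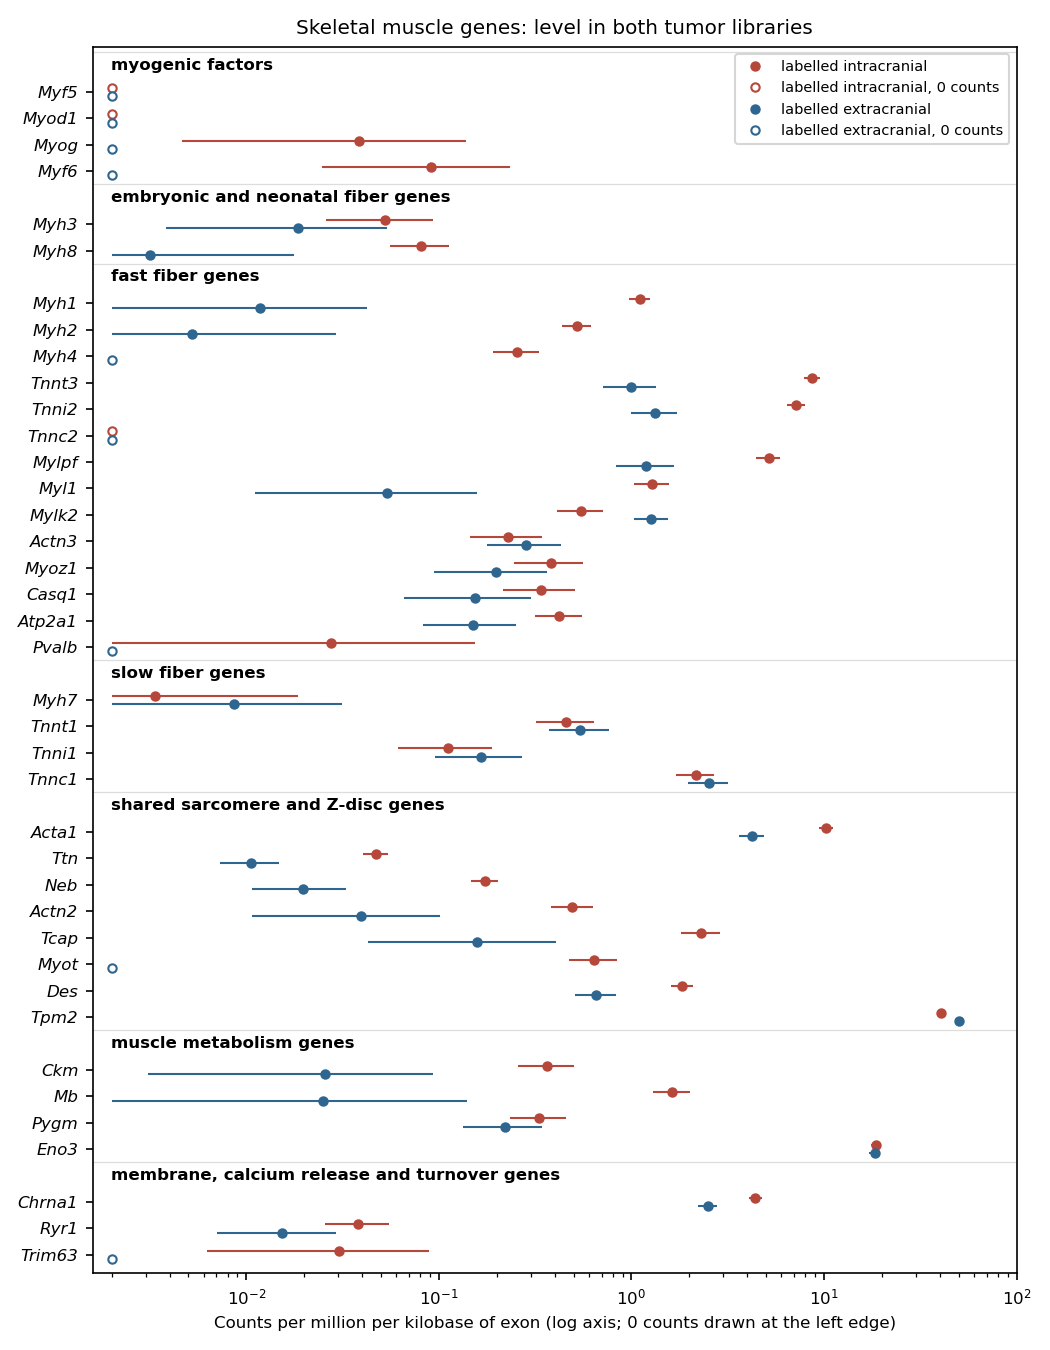
Level of each of the 39 skeletal muscle genes in the intracranial library (red) and the extracranial library (blue), in CPM per kilobase of exon on a log axis, with bars for the 95% counting interval, clipped at the left edge, and open circles for 0 counts. Tpm2 and Eno3 sit at the right in both libraries, whereas the fast myosins Myh1 and Myh2 are 93.6-fold and 99.3-fold apart.

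Other cell types differed between the libraries as well, and their part in the muscle result was not tested. All 8 of 8 squamous epithelium genes were called higher in the intracranial library, against 5.41% of all genes tested. Their summed level was 21761 CPM in that library and 0.598 CPM in the other. Krt13, a keratin of the oral lining, led them with 366709 and 5 counts, whereas Krt5, Krt6a, Dsg3, Sprr3 and Trp63 were at 0 counts in the extracranial library. Of 6 tendon genes 4 were tested, and 2 (Fmod and Mkx) were called higher in the intracranial library. The summed level over the list was 1021 and 133 CPM, while Thbs4 had 1051 and 1177 counts. In bulk RNA, fewer cells of a type and less RNA per cell cannot be told apart.

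The myogenic factors were at or near 0 in both libraries. Myf5 and Myod1, which commit cells to the muscle lineage, were at 0 counts in both. The counting interval of 0 counts reaches 0.106 CPM in the intracranial library and 0.138 CPM in the extracranial library. Myog, needed for myoblasts to form fibers, had 2 and 0 counts. Myf6, the member of this family kept on in mature fibers, had 4 and 0 counts, a ratio whose interval began at 0.508-fold. None of the 4 had enough counts to be tested. Markers of satellite cells, the resident muscle stem cells, were as low: Pax7 had 1 and 0 counts, Pax3 had 2 and 1, and Cdh15 had 0 and 1.

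Of the 39 genes, those of myosin heavy chain, the motor protein of the thick filament, held the largest ratio with counts in both libraries. Myh1, the motor of fast IIx fibers, had 243 counts in the intracranial library and 2 in the extracranial library, or 6.99 and 0.0747 CPM. It was thus 93.6-fold higher (25.6 to 777) in the former. Myh2, the motor of fast IIa fibers, had 129 counts against 1 and was 99.3-fold higher (17.5 to 3954). Myh4, the motor of the fastest IIb fibers, had 53 counts against 0. It was 13.6-fold higher with 3 counts taken as the floor of a library, and the interval of its ratio began at 10.7-fold. All 3 adult fast myosins were therefore detected in the intracranial library and were below the floor of 3 counts in the other.

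The developmental and slow myosins were rarer. Myh8, the neonatal form, had 33 counts against 1 and was 25.4-fold higher (4.25 to 1034) in the intracranial library. Myh3, the embryonic form, had 11 counts against 3, a 2.82-fold ratio whose interval (0.746 to 15.8) included no difference. Myh7, the myosin of slow fibers and of heart, had 1 and 2 counts and was not tested. Within the intracranial library, where the 6 genes together had 470 counts, Myh1 made up 51.7% (exact binomial interval 47.1 to 56.3), Myh2 27.4% (23.5 to 31.7), Myh4 11.3% (8.56 to 14.5), Myh8 7.02% (4.88 to 9.72), Myh3 2.34% (1.17 to 4.15) and Myh7 0.213% (0.00539 to 1.18). The adult fast forms Myh1, Myh2 and Myh4 together thus took 90.4% (87.4 to 92.9). In the extracranial library the 6 genes had 9 counts in all, too few to give a composition: Myh3 had 3, Myh1 and Myh7 had 2 each, Myh2 and Myh8 had 1 each, and Myh4 had 0.

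**Figure D2:**
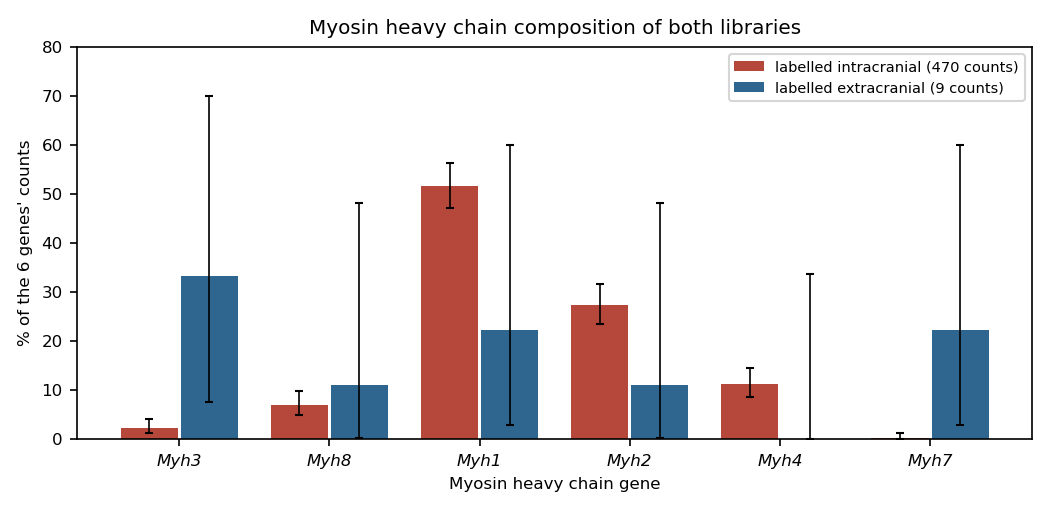
Share of each of 6 myosin heavy chain genes in their summed counts, in percent, for the intracranial library (red, 470 counts) and the extracranial library (blue, 9 counts), with 95% exact binomial intervals. Myh1 leads in the intracranial library at 51.7%, and the blue intervals are too wide to order the genes.

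These myosins are similar in sequence, and the handling of reads with several alignments was not given. Of the 72-base windows of a gene's transcripts, 72 bases being the read length, 16.7% of Myh1, 14.7% of Myh2, 10.7% of Myh4, 7.60% of Myh8, 11.0% of Myh7 and 2.01% of Myh3 also occur in a transcript of another gene. Myh2 holds most of the windows that Myh1 shares. Outside the myosin heavy chains, the highest such share was 8.51% for Myl1, with a pseudogene, and 30 of the 39 genes had no such window.

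The fast troponins were higher in the intracranial library, and the slow ones did not differ beyond counting error. Tnnt3, the fast form of troponin T, which ties the complex to tropomyosin, had 476 counts in the intracranial library and 42 in the extracranial library, or 13.7 and 1.57 CPM. It was 8.73-fold higher (6.36 to 12.3) in the former. Tnni2, the fast form of the inhibitory subunit troponin I, had 372 and 53 counts and was 5.41-fold higher (4.05 to 7.35). Both were called, although under upper quartile scaling the interval of Tnni2 reached below 4-fold, which left 11 genes called, and both were still well above the floor in the extracranial library, unlike the fast myosins.

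Tnnt1, the slow form of troponin T, had 35 and 32 counts, a ratio, intracranial over extracranial, of 0.842 (0.506 to 1.41). Tnni1, the slow form of troponin I, had 14 and 16 counts (0.674, 0.305 to 1.47). Tnnc1, the calcium-binding troponin C of slow fibers and heart, had 78 and 70 counts (0.858, 0.613 to 1.20). Of the 4 slow genes 3 were tested and 0 were called, against 5.41% and 1.78% of all genes tested, higher in the intracranial and the extracranial library. The median log2 ratio of the 3 with a ratio was 0.25, extracranial over intracranial.

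The share of the fast form therefore differed between the libraries. Per kilobase of exon, Tnnt3 made up 94.98% (93.1 to 96.5) of troponin T in the intracranial library and 64.6% (53.0 to 74.9) in the extracranial library, and the odds of the fast over the slow form were 10.3 times higher (5.58 to 19.1) in the former. Tnni2 made up 98.5% (97.4 to 99.2) and 88.8% (81.8 to 93.7) of troponin I, with an odds ratio of 7.96 (3.42 to 18.7). Per kilobase, the fast forms of troponin T and I made up most of each pair in both libraries. Without division by exon length, the extracranial share of Tnnt3 was 56.8% (44.7 to 68.2), an interval that included equal shares. For troponin C no such share could be read, because the fast form Tnnc2 was listed at 0 counts in both. In the annotation used here, 74.0% of its exon length (592 bases) lies opposite exons of Ube2c, a cell cycle gene with 557 and 652 counts. Reads over both genes can be set aside where strand is not used, so that the 0 of Tnnc2 is uncertain.

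Other pairs of fast and slow forms differed less or were too shallow. Mylpf, the fast regulatory light chain, had 190 and 34 counts and was 4.30-fold higher (2.98 to 6.40) in the intracranial library, short of a 4-fold call. Its slow partner Myl2 had 30 and 11 counts, and the odds ratio of the pair was 2.04 (0.841 to 4.70). Myl1, the fast alkali light chain, had 92 and 3 counts and was called at 23.6-fold (7.83 to 117), whereas its slow partner Myl3 had 1 and 0. Both fast light chains were thus higher in the intracranial library beyond counting error.

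The calcium handling proteins of the sarcoplasmic reticulum, the calcium store of the fiber, had few counts. Atp2a1, the fast fiber calcium pump, had 51 and 14 counts and was 2.81-fold higher (1.53 to 5.49) in the intracranial library. It shares 763 bases of exon, 21.9% of its length, with Rabep2 on the opposite strand, which had 690 and 694 counts. Beside Atp2a2, the pump of slow fibers and of non-muscle cells, it made up 1.98% (1.48 to 2.59) and 0.954% (0.523 to 1.59) per kilobase. Casq1, the calcium store protein of fast fibers, had 23 and 8 counts (2.21-fold, 0.956 to 5.73), and its share beside the slow and cardiac Casq2 was 50.2% (36.0 to 64.0) and 23.8% (11.1 to 40.5), an odds ratio of 3.20 (1.18 to 9.49). Ryr1, the calcium release channel, had 29 and 9 counts and was 2.48-fold higher (1.14 to 5.96). None of these 3 was called.

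**Figure D3:**
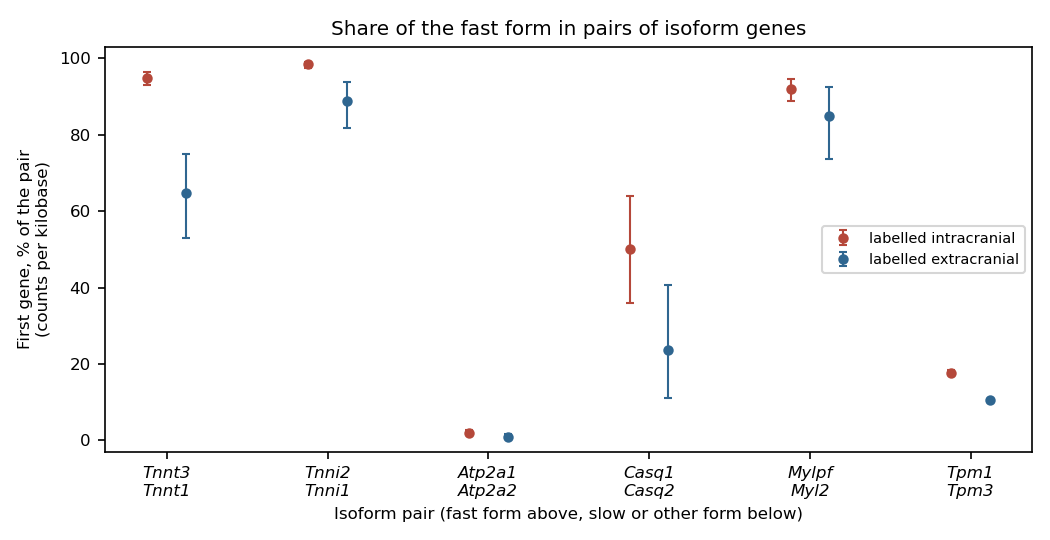
Share of the first gene of each pair, in percent of the pair's counts per kilobase of exon, in the intracranial library (red) and the extracranial library (blue), with 95% exact binomial intervals. The intervals of the libraries do not overlap for troponin T (Tnnt3 and Tnnt1), for troponin I (Tnni2 and Tnni1) and for the broadly expressed tropomyosins Tpm1 and Tpm3.

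None of the other fast fiber genes was called. Mylk2, the myosin light chain kinase of skeletal muscle, had 56 and 100 counts and was 2.32-fold higher (1.66 to 3.28) in the extracranial library. Actn3, the α-actinin of fast fibers, had 23 and 22 counts (0.805, 0.429 to 1.51, intracranial over extracranial). Myoz1, a Z-disc protein of fast fibers, had 25 and 10 counts (1.93, 0.893 to 4.49). Pvalb, the calcium buffer of fast fibers, had 1 and 0 counts and was not tested. Of the 14 fast fiber genes 12 were tested. Of these 6 were called, all higher in the intracranial library, against 5.41% of all genes tested. The summed level of the 14 was 49.9 and 10.8 CPM, a 4.62-fold difference.

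Of the 8 genes for sarcomere parts that fast and slow fibers share, 4 were called. All 4 were higher in the intracranial library, against 5.41% of all genes tested. Neb (nebulin), which spans the thin filament, had 160 and 14 counts and was 8.80-fold higher (5.09 to 16.5) in the intracranial library. Actn2, the α-actinin of all fibers and of heart, had 65 and 4 counts (12.5-fold, 4.66 to 47.3). Tcap, which joins titin ends at the Z-disc, had 76 and 4 counts (14.6-fold, 5.49 to 55.1). Myot (myotilin), another Z-disc protein, had 49 and 0 counts. It was 12.6-fold higher by the floor of 3 counts, and the interval of its ratio began at 9.85-fold. In all 4, the extracranial library held 14 counts or fewer.

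Ttn (titin), the giant spring of the sarcomere, had 191 and 33 counts and was 4.46-fold higher (3.07 to 6.66) in the intracranial library, short of a 4-fold call. Des (desmin), the intermediate filament of all muscle types, had 239 and 66 counts (2.79-fold, 2.12 to 3.72). Acta1, the actin of skeletal muscle, had 545 and 173 counts, or 15.7 and 6.46 CPM (2.43-fold, 2.04 to 2.90). These 3 differed beyond 2-fold but not beyond 4-fold. The fold of Acta1 over that of Des did not differ from 1 beyond counting error (0.870, 0.620 to 1.21), whereas the intracranial excess of Tnnt3 was 3.59 times (2.49 to 5.28) that of Acta1, and that of Myh1 was 10.7 times (2.74 to 92.0) that of Tnnt3. These pairs were chosen after their values were seen.

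Tpm2 (β-tropomyosin), a thin filament protein that non-muscle cells also make and that the study lists among genes of MYC tumor cells, was the most abundant of the 39 per kilobase of exon. It had 4070 and 3923 counts, or 117.1 and 146.6 CPM, and was 1.25-fold higher (1.20 to 1.31) in the extracranial library. Tpm2 set the sum of its group, 155 and 158 CPM. With an interval beyond 2-fold, 7 of the 8 genes were nonetheless higher in the intracranial library, against 9.77% of all genes.

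**Figure D4:**
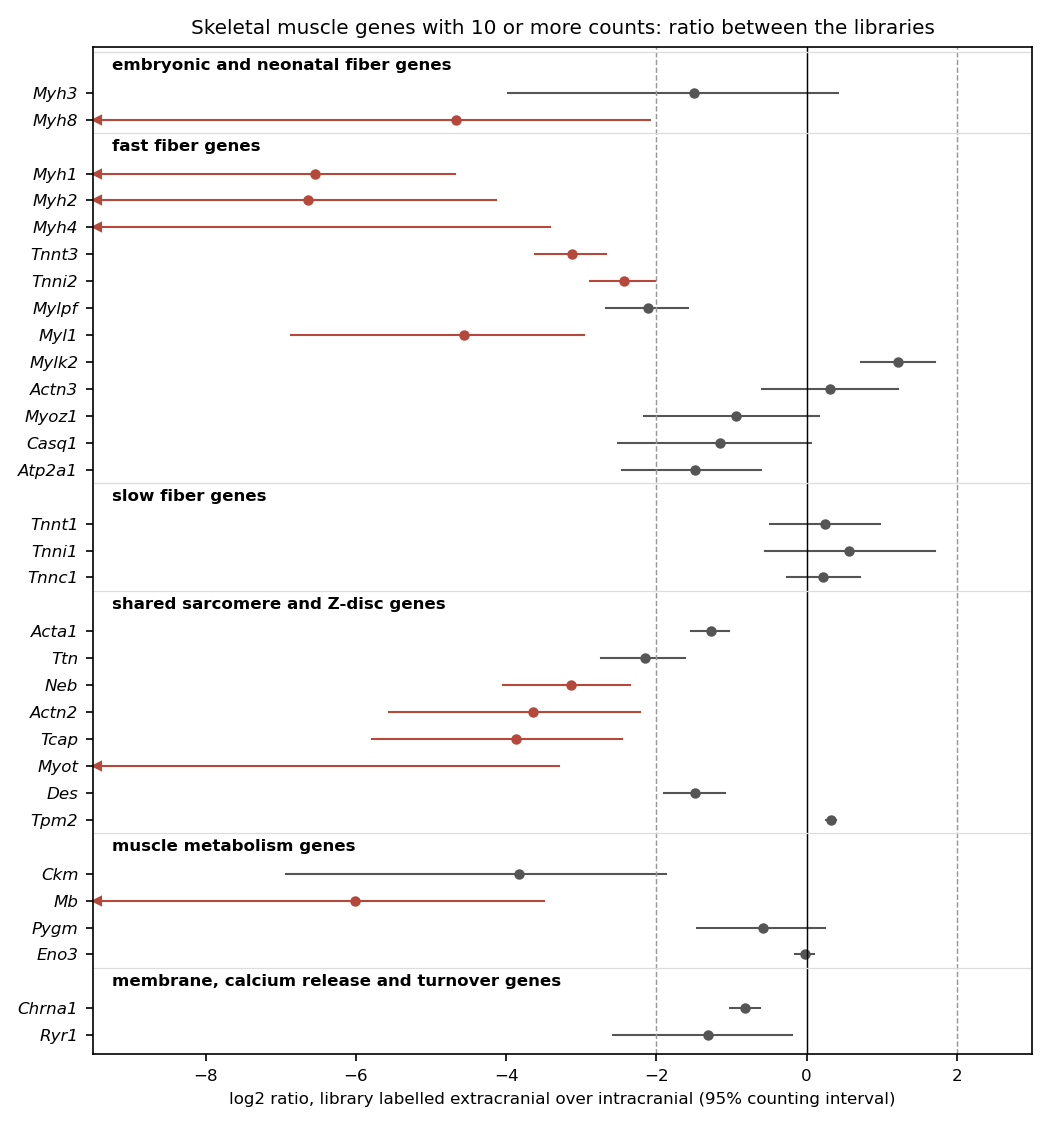
Log2 ratio, extracranial library over intracranial library, with 95% counting intervals for the 31 genes with 10 or more counts; the 12 called genes are red, arrows mark intervals that run past the axis, and a missing point marks 0 counts in the extracranial library. Dashed lines mark 4-fold, and Mylk2 and Tpm2 are the only genes whose interval lies wholly above 0.

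Genes of muscle metabolism ranged from a called gene to a gene whose ratio was near 1. Mb (myoglobin), the oxygen store of muscle, had 84 counts in the intracranial library and 1 in the extracranial library and was 64.7-fold higher (11.3 to 2585). Ckm, the creatine kinase of muscle, had 37 and 2 counts (14.2-fold, 3.68 to 122). Pygm, the glycogen phosphorylase of muscle, had 37 and 19 counts (1.50-fold, 0.841 to 2.76). Eno3, the muscle form of the glycolytic enzyme enolase, came next to Tpm2 per kilobase. It had 1125 and 851 counts and 32.4 and 31.8 CPM, a ratio of 1.02 (0.931 to 1.11).

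Without Tpm2 and Eno3, the summed level of the other 37 genes was 117.9 CPM in the intracranial library and 38.5 in the extracranial library, a 3.06-fold difference, against 1.23-fold with all 39. In both libraries the same 3 genes led per kilobase of exon. Tpm2 stood at 40.3 and 50.4 CPM per kilobase, Eno3 at 18.6 and 18.3, and Acta1 at 10.2 and 4.21. Below them, Tnnt3 (8.65), Tnni2 (7.15) and Mylpf (5.15) came next in the intracranial library, and Tnnc1 (2.51), Chrna1 (2.49) and Tnni2 (1.32) in the extracranial library. The intervals of Tnnc1 and Chrna1 overlapped.

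At the membrane, Chrna1, the ligand-binding subunit of the muscle acetylcholine receptor at the nerve contact, had 669 and 292 counts, or 19.3 and 10.9 CPM, and was 1.76-fold higher (1.54 to 2.03) in the intracranial library. Of the subunits it pairs with, Chrnb1 had 85 and 76 counts, the adult Chrne had 3 and 2, and both the fetal Chrng and Chrnd had 0 in both libraries. Transcripts for the alpha and beta subunits were thus measured without those for delta or gamma. Trim63, a ubiquitin ligase that marks sarcomere proteins for breakdown, had 3 and 0 counts and was not tested.

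RefSeq held promoters for 29 of the 39 genes, in 34 windows. The motif CAGCTG, an E-box that myogenic factors bind and that reads the same on both strands, was found in 14 of these 29 genes (48.3%), against 14.7% of 27025 genes overall. TATAAA, the TATA box, read on the sense strand only, was found in 6 of the 29 (20.7%), against 8.94% overall. By group, CAGCTG was found in 5 of 9 fast fiber genes, 3 of 5 shared sarcomere genes, 3 of 4 metabolism genes, 2 of 3 membrane, calcium and turnover genes and 1 of 4 slow fiber genes. It was in neither of the developmental myosins. The windows of Chrna1 (chr2:73580339-73580588, minus strand), Acta1 (chr8:123894776-123895025, minus strand) and Ckm (chr7:19410844-19411093, plus strand) are printed to show the motif, in capitals, in a gene of the membrane, a gene of the sarcomere and a gene of metabolism.
Chrna1: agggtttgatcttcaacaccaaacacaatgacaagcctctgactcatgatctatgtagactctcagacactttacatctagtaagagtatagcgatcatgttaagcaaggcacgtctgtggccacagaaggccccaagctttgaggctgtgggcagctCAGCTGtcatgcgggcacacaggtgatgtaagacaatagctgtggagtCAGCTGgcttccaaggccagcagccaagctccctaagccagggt
Acta1: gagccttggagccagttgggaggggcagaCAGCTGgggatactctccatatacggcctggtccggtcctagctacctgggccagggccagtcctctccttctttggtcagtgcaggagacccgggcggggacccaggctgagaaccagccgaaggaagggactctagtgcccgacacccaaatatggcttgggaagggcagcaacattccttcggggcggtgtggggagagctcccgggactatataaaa
Ckm: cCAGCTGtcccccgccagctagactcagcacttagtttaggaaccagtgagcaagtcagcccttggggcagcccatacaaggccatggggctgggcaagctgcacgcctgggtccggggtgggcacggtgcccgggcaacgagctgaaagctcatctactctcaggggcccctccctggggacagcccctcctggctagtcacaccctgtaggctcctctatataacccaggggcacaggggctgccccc
The motif began 92 and 44 bases before the start of Chrna1, 221 before that of Acta1 and 249 before that of Ckm. A match says only that these letters stand in the window.

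Other muscle genes, 72 in 7 lists, held calls in both directions. Of the 49 tested, 9 were called higher in the intracranial library, against 5.41% of all genes tested. In the extracranial library 2 were called higher, against 1.78%. The median log2 ratio was -0.36 over those with a ratio. Of 10 other fast fiber genes 7 were tested and 0 were called in either direction, against 5.41% and 1.78% of all genes tested. Ak1, an adenylate kinase, had 3009 and 3149 counts, Tmod4, which caps thin filaments, 71 and 100, and Pgam2, a glycolytic enzyme, 25 and 16.

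Of 10 other slow and oxidative genes 9 were tested. Of these 4 were called higher in the intracranial library, against 5.41% of all genes tested, and they are named after their values were seen. Mybpc1, a slow fiber protein of the thick filament, had 89 and 1 counts, Csrp3 67 and 3, Myoz2 59 and 0, and Lmod2 48 and 0. The 3 genes of this list with the most counts were Mybpc1, Cox6a2, a subunit of the respiratory chain in muscle, with 47 and 100, and Csrp3. Genes assigned to slow fibers therefore held both directions. The median log2 ratio, extracranial over intracranial, was -2.13 over the genes of this list with a ratio and -0.07 over the other fast fiber genes with one. Among the skeletal muscle genes the order was the reverse, with 0.25 for slow and -2.27 for fast fiber genes. The contrast of fast and slow genes seen there was thus not repeated in these other lists, and the reason was not tested.

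Of 8 other embryonic and fetal genes 3 were tested and 1 was called, against 5.41% of all genes tested. This was Tnnt2, the troponin T of heart and embryonic muscle, at 128 and 4 counts (24.6-fold higher in the intracranial library, 9.39 to 91.8). The other abundant genes of that list were Ncam1, an adhesion protein, with 700 and 1826, and Myl4, an atrial and embryonic light chain, with 110 and 63. Of 8 satellite cell and early myogenic genes 4 were tested and 0 were called in either direction, against 5.41% and 1.78% of all genes tested. Heyl had 60 and 110 counts and Msc had 14 and 4. Of 17 other sarcomere and triad genes 12 were tested. Of these 3 were called higher in the intracranial library, against 5.41% of all genes tested. They were Xirp2 with 84 and 0 counts, Trdn with 44 and 0, and Myom3 with 34 and 1. The abundant Myom1 had 357 and 421 counts and Stac3 had 168 and 94.

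Of 13 genes of the muscle membrane and of regulation, 10 were tested. The 2 calls were both higher in the extracranial library, against 1.78% of all genes tested, and 0 were called in the other direction, against 5.41%. The list nonetheless held both directions. With an interval beyond 2-fold, 2 were higher in the intracranial library and 3 in the extracranial library, against 9.77% and 5.86% of all genes. Dmd (dystrophin), named after its values were seen, had 1600 and 311 counts. It was 3.96-fold higher (3.51 to 4.49) in the intracranial library. Musk, the receptor kinase that organizes the nerve contact, had 2 and 84 counts and was 54.5-fold higher (14.6 to 458) in the extracranial library. Mef2c, a transcription factor of muscle and of other lineages, had 762 and 2783 counts and was 4.74-fold higher (4.38 to 5.14) there. Its relatives Mef2a, with 3127 and 3601 counts, and Mef2d, with 2344 and 1660, were not called.

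Among craniofacial and extraocular muscle genes, Tbx1, which acts in the head muscle precursors, had 70 and 7 counts (7.70-fold higher in the intracranial library, 3.55 to 19.9) and was not called. Myl6b had 121 and 126 counts, and Tcf21, a factor of head muscle precursors, was at 0 in both.

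**Figure D5:**
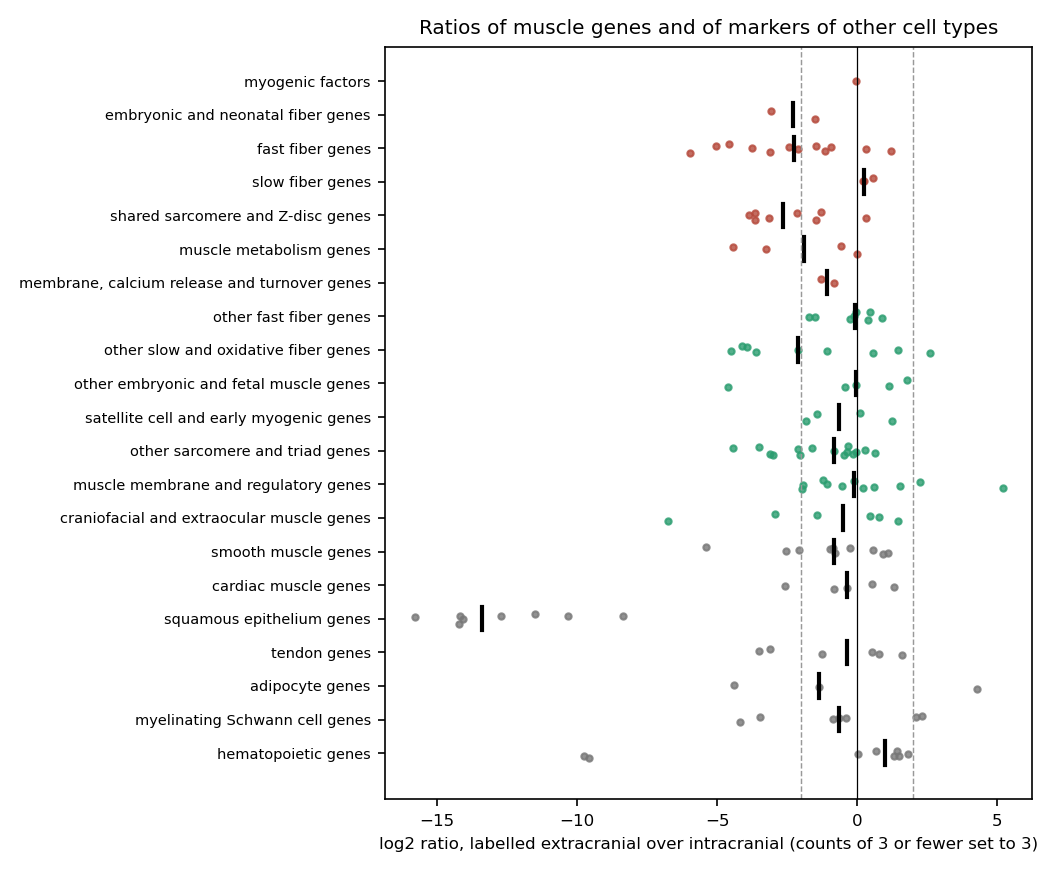
Log2 ratio, extracranial library over intracranial library, of each gene in the 7 groups of skeletal muscle genes (red), in 7 lists of other muscle genes (green) and in 7 lists of markers of other cell types (grey), with counts of 3 or fewer set to 3; black bars are list medians and dashed lines mark 4-fold. The squamous epithelium genes sit farthest to the left. The slow fiber genes in red sit just right of 0, whereas the other slow and oxidative genes in green have a median of -2.13.

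Some of the 39 genes are shared with other muscle types, so the markers of those were set beside them. Of 10 smooth muscle genes 1, Cnn1, was called higher in the intracranial library (164 and 1 counts), against 5.41% of all genes tested. With an interval beyond 2-fold, 3 were higher there, against 9.77% of all genes, and 0 in the extracranial library, against 5.86%. Synpo2 was 2.12-fold higher (1.81 to 2.50) in the extracranial library (246 and 402 counts). Myh11, the myosin of smooth muscle, had 220 and 40 counts (4.24-fold higher in the intracranial library, 3.01 to 6.09), and Lmod1 had 45 and 6 (5.78-fold, 2.46 to 16.6), both named after their values were seen. The summed level of the list was 69.2 and 51.8 CPM, with most counts in Acta2 (873 and 384), Smtn (696 and 449) and Synpo2. Of 8 cardiac genes 4 were tested. Of these 1, Myl7, was called higher in the intracranial library (23 and 0 counts), against 5.41% of all genes tested. The summed level of the 8 was 13.2 and 18.9 CPM. The cardiac myosin Myh6 had 2 and 2 counts. The part of these cell types in the levels of Des, Tpm2, Actn2 and Tnnc1 was not tested.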

How the data were processed

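Poly(A) RNA of both tumors was made into directional libraries and sequenced as single reads. The authors aligned the reads with STAR 2.7.9a to GRCm39 and counted them per gene of Ensembl release 104 with featureCounts, and the deposited values are these raw counts, without normalization. Whether strand was used and how reads with several alignments were treated is not given in the sources used here. Symbols and exon lengths came from release 21 of the mouse GENCODE annotation, matched on gene ID for 52135 of 55416 genes (94.1%). Unmatched genes held 0.694% and 0.950% of the counts and stayed in the library sizes.

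Samples were grouped by the localization label. Library sizes were scaled with TMM of edgeR 4.0.16 in R 4.3.3 (factors 1.006 and 0.994). Levels have exact Poisson intervals and ratios conditional exact binomial intervals, both at 95%, computed with scipy 1.17.1. Counts are of reads, which can be copies of 1 molecule, so intervals and floors cover counting error only. Calls needed 10 or more counts over both libraries. The quasi-likelihood test of edgeR needs replicates and was not run, and no p-value is given. For list medians, counts of 3 or fewer (0.0863 and 0.112 CPM) were set to 3, and a gene at or under 3 in both libraries had no ratio. Genes of other lists were named where they were among the 3 with the most counts, were at 0 in both libraries or were called against most of their list, and a few of these are not reported here. The scripts were tested on simulated counts. The skeletal muscle genes and all other lists were chosen with earlier results of these data known. Alternatives were upper quartile scaling, total counts, size factors of DESeq2 1.42.0, other count minimums and folds, a prior count of 2, and levels with or without division by exon length.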

Additional observations from a re-analysis of the deposited data

How the results depend on the processing

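No paired analysis was possible because a single library stood for each site, and for the same reason no replicate could be left out. Under size factors of DESeq2, plain totals and upper quartile scaling, 39 of 39 counts and medians stayed within the limits set for a change, 1.5 times for a count and 0.1 for a log2 median, and the shift of every log2 ratio was 0.015, -0.017 and 0.038. With 100 or more counts, 5 skeletal muscle genes in place of 12 were called beyond 4-fold, all higher in the intracranial library, since fewer were tested. An interval beyond 2-fold called 3434 of all genes in place of 1581 (2147 with the intracranial library higher and 1287 with it lower), and the ratio alone called 2542, of which 787 were higher in the extracranial library. With 100 or more counts the median log2 ratio was -1.79 over the skeletal muscle genes, -2.78 over the fast and -1.48 over the shared sarcomere genes, and metabolism, with 1 gene left, gave none. With 2 counts added to each value instead of the floor, these medians were -1.33, -2.05 and -2.54, with 0.37 for slow and -1.78 for metabolism genes, and the cause of these shifts was not tested. The myogenic factors have no median, since 1 gene had a ratio. Leaving out Tpm2 and Eno3, a choice made after seeing the data, changed the fold of the summed level, intracranial over extracranial, from 1.23 to 3.06. Without division by exon length, 10 of 16 fast shares and, with it, 12 of 14 myosin shares lay within the reported interval, whereas 8 of 66 ranks of the level among the skeletal muscle genes stayed the same. The planned comparison of protein sequences was not run.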

Other observations

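Several markers of heart and fat stood apart from the rest of their lists. Tnni3, the troponin I of heart, had 345 counts in the intracranial library and 381 in the extracranial library, whereas the cardiac Nppa and Nkx2-5 had 1 and 0 counts each. Nppb, which encodes a natriuretic peptide, had 59 and 114 counts and was 2.51-fold higher (1.82 to 3.50) in the extracranial library. Ucp1, the uncoupling protein of brown fat, had 4 and 59 counts and was called higher in the extracranial library (19.2-fold, 7.10 to 72.6), where the fat cell genes Adipoq and Lep were at 0 counts, and Plin4 (83 and 2) was called higher in the intracranial library. Among Schwann cell genes, Sox10 (43 and 0 counts) was called higher in the intracranial library and Egr2 (630 and 2396) in the extracranial library, and the list's most abundant gene, Pmp22, had 6168 and 3623. Of 8 hematopoietic genes 2 were called higher in the intracranial library, against 5.41% of all genes tested. These were S100a8 (8970 and 9 counts) and S100a9 (14455 and 13). The other 6 were not called, among them Lyz2 with 102495 and 124735 and Csf1r with 13206 and 35302. These values have no replicate check.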
